A study of Homo sapiens with 6 samples.

Results

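The myogenic transcription factors followed here are MYOD1, MYOG, MYF5, MYF6, MEF2A, MEF2C, MEF2D, PAX7 and PAX3. Probes were taken by gene symbol, with older names of a gene counted. All 9 genes were on the array, with 10 probes between them, out of 17559 genes and 20236 probes with a symbol. MEF2A had 2 probes and every other member 1. The members were chosen by symbol, and the set was selected on earlier results of these arrays, the log2 levels under flow and in static culture, so differences between flow and static culture are given as a description, without a test.

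The samples were kidney organoids grown for 35 days from the human embryonic stem cell line H9 and profiled on 6 single-colour microarrays. Every organoid carried PKHD1 mutations, since the lines were PKHD1-/- (clone C51) and PKHD1+/- (clone C9) and no wild-type organoid was compared. PKHD1 is the gene of autosomal recessive polycystic kidney disease. Each genotype was grown in 3 cultures, with 1 array for each. In the flow culture organoids lay on a gelbrin layer, a network of gelatin and fibrin, and from day 15 onward medium ran over them at a rate of 4.27 ml/min. Static organoids had the same layer and no flow. The forskolin organoids were given 20 µM forskolin, which activates adenylyl cyclase and so raises cyclic AMP, from day 14, and the labels do not name a layer there. With 1 clone per genotype, the effect of clone and that of genotype cannot be told apart, and no group has a replicate.

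MYOD1, MYF5, MYF6 and MYOG are the myogenic basic helix-loop-helix (bHLH) proteins. They pair with E proteins, bind the E-box CANNTG and switch on the genes of skeletal muscle. In the embryo PAX3 and PAX7 mark muscle progenitors, MYF5 and MYOD1 commit cells to the muscle lineage, and MYOG and MYF6 act in differentiating muscle fibres. The MEF2 proteins bind an A/T-rich site and work with the bHLH proteins at muscle promoters. They also act in other tissues, such as neurons and heart. Skeletal muscle is not a part of the nephron, and PAX2 and PAX8 are the PAX genes of the developing kidney.

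The genes of MYF6 and MYF5 are neighbours on chromosome 12, with 7438 bases between the end of MYF6 and the start of MYF5 (GRCh38.p14), and MYF6 had a Pearson r of 0.94 to MYOG over the arrays against 0.14 for MYF5, which lay near background. The 250 bases before the start of MYOG, MYF6 and MYF5 are therefore shown, read 5′ to 3′ on the strand of the gene. They come from RefSeq on GRCh38.p14, where 8 of the 9 members were matched. The windows are chr1:203086013-203086262 on the minus strand for MYOG, chr12:80707384-80707633 on the plus strand for MYF6 and chr12:80716662-80716911 on the plus strand for MYF5. Capitals mark CANNTG, the E-box, and CTANNNNTA, a loose form of the MEF2 site, which do not overlap in these windows.
MYOG: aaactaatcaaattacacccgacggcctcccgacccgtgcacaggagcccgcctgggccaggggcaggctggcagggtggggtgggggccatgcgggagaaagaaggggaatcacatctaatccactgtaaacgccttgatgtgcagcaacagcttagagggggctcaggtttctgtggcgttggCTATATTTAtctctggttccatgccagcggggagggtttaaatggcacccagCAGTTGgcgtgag
MYF6: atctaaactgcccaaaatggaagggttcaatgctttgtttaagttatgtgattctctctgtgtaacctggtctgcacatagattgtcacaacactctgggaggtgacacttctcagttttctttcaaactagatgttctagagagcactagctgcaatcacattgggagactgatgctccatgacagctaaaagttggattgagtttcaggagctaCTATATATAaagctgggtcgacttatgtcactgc
MYF5: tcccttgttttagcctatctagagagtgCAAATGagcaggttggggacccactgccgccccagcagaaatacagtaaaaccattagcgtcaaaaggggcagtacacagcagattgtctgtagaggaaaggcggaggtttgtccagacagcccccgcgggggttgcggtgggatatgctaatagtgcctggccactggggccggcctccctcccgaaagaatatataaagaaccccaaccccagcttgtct
MYOG held 1 E-box, beginning 13 bases before the start, and 1 CTANNNNTA, beginning 65 bases before it. MYF6 held CTANNNNTA 34 bases before the start, where the stricter MEF2 site also matched, and no E-box. MYF5 held 1 E-box, 222 bases before the start, and no MEF2 match. Over 35116 RefSeq windows of this length, searched on both strands, 61.8% held CANNTG, 14.6% held CTANNNNTA and 2.80% held the stricter MEF2 site. The stricter MEF2 site was absent from MYOG. Among windows not shown, 1 of 3 of MEF2A and 1 of 7 of MEF2C held it, and MEF2D, PAX7 and PAX3 held none. MEF2A ranged over only 0.20 in log2 level. These are matches of letters, and no binding was measured. Whether a motif goes with a pattern of levels was not tested.

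Levels are given as normalized log2 intensity, which is the scanner intensity after background correction and quantile normalization, and levels of different probes cannot be set against each other. The 2 forskolin arrays were scanned on another day than the other 4 arrays and were the dimmest, with a median spot 16.5 and 21.1 units above the blank spots against 33.6 to 58.2 elsewhere. Scan day and forskolin cannot be told apart. Array to array correlations over genes ran from 0.922 to 0.983. Of 24 kidney markers, 19 were measured and 17 were above background on all 6 arrays. UMOD, the uromodulin of the thick ascending limb, was above background on 4 arrays and SLC12A3, the transporter of the distal tubule, on 2. The mean of the 2 PKHD1 probes lay between 7.24 and 7.49 on the 6 arrays, but the probes did not move together. In the authors' scale the forskolin to static ratio was 0.262 in PKHD1-/- and 0.134 in PKHD1+/- for 1 probe, and 1.71 and 1.40 for the other. What its probes cover is not known, so this checks no genotype.

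In both genotypes MYOD1, MYOG and MYF6 had their highest levels with forskolin. MYOD1, MYOG and MEF2C were also higher under flow than in static culture in both genotypes, and MEF2C was about as high with forskolin as under flow in PKHD1-/-. The remaining members, MYF5, MEF2A, MEF2D, PAX7 and PAX3, ranged over less than 1 on the log2 scale. A range of at least 1 was seen for 4 of the 9 members and for 11.8% of the 16364 genes tested. This range includes the flow and static levels on which the set was selected, so the count describes the set and is no support. In whole organoids a higher share of muscle cells and more of a transcript in each such cell cannot be told apart.

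MYOD1 commits cells to the muscle lineage. Its log2 level was 7.16 in PKHD1-/- and 6.36 in PKHD1+/- in static culture, 9.35 and 8.56 under flow, and 10.31 and 10.61 with forskolin. Both flow arrays lay above both static arrays, and both forskolin arrays above both flow arrays. In the scaled intensities of the authors, which are linear and set to a median of 25 on each array, MYOD1 read 50.9 and 15.2 in static culture, 324.2 and 178.7 under flow, and 799.3 and 930.9 with forskolin. The flow value was 6.37 times the static value in PKHD1-/- and 11.8 times in PKHD1+/-. The forskolin value was 15.7 and 61.2 times the static value. The static 15.2 of PKHD1+/- was low, so the ratios to it are less certain than those of PKHD1-/-. Before any scaling the spot of the static arrays read 139 and 72.1, that of the flow arrays 814 and 503 and that of the forskolin arrays 737 and 1268, so that in PKHD1-/- the forskolin spot was not brighter than the flow spot until the dimmer forskolin array was scaled.

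Flow minus static was 2.18 for MYOD1 in PKHD1-/- and 2.20 in PKHD1+/-, against a residual SD of 0.34. A flow difference of at least 1 in both genotypes was seen for MYOD1 alone among the members, and for 0.354% of the genes tested. With forskolin it differed from static culture by 3.15 and 4.25, on average 3.70 ± 0.34 (limma's moderated SE, n = 2 pairs), with an adjusted p of 0.0533 in limma, just short of the threshold of 0.05. Over the 14 alternatives of processing the adjusted p of MYOD1 ran from 0.00202 to 0.306. Adjusted p-values here are by Benjamini-Hochberg over all 16364 genes.

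MYOG, or myogenin, acts as muscle cells differentiate. Its log2 level was 6.37 and 5.92 in static culture for PKHD1-/- and PKHD1+/-, 7.29 and 7.04 under flow, and 8.79 and 8.83 with forskolin. The cultures did not overlap, in the same order as for MYOD1. The authors' scaled intensity of MYOG was 16.1 and 3.55 in static culture, 55.4 and 49.0 under flow, and 242.0 and 237.9 with forskolin. The MYOG intensity in PKHD1+/- static culture was close to background, which makes the ratios to it, 13.8 for flow and 67.1 for forskolin, less certain than the 3.43 and 15.0 of PKHD1-/-.

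Flow minus static was 0.92 and 1.11 for MYOG on the log2 scale, with a residual SD of 0.14. For forskolin against static the differences were 2.42 and 2.91, a mean of 2.66 ± 0.14 (SE, n = 2 pairs), and MYOG passed the test (adjusted p = 0.0431, limma). It was the only member called in this comparison, in which 0.703% of the genes were called higher and 0.33% lower. The call was lost in each fit without 1 of the 6 arrays, where the adjusted p of MYOG lay between 0.101 and 0.307. It was also lost with the authors' value table (0.0511) and without the filter on dim genes (0.0501), and over 14 alternatives it ran from 0.00101 to 0.307. The forskolin values of these genes had been seen in an earlier account of the same arrays, so the call is not independent support.

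MYF6, also called MRF4, is most abundant in mature fibres. Its log2 level was 6.80 and 6.17 in static culture for PKHD1-/- and PKHD1+/-, 6.94 and 6.35 under flow, and 8.36 and 8.43 with forskolin. The flow and static arrays overlapped, and the flow differences of 0.14 and 0.18 were below the residual SD of 0.22. The 2 forskolin arrays stood above the other 4. The forskolin differences were 1.56 and 2.26, a mean of 1.91 ± 0.22 (SE, n = 2 pairs), which did not pass (adjusted p = 0.0613, limma). In the authors' scale MYF6 read 32.7 in static culture and 169.9 with forskolin in PKHD1-/-, a ratio of 5.19. In PKHD1+/- it read 9.61 and 166.6, a ratio of 17.3. The static 9.61 was low, which makes this ratio less certain than the 5.19. The flow arrays read 36.7 and 19.2.

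MYF5 is the earliest of the 4 bHLH genes in the mouse embryo. Its log2 level was 5.88 and 5.74 in static culture for PKHD1-/- and PKHD1+/-, 6.22 and 5.87 under flow, and 5.85 and 5.89 with forskolin. All of these lay near the lowest level above background, which was 5.73 to 5.83 over the arrays, and MYF5 was not above background in PKHD1+/- static culture. It was the highest in PKHD1-/- flow, where the authors' intensity was 10.4 against 3.04 in static culture, a ratio of 3.42. Taking the lowest signal above background for the static array, the bound in PKHD1+/- was 1.05-fold under flow and 1.07-fold with forskolin. On the log2 scale these bounds are 0.070 and 0.095, within the residual SD of 0.12, so no firm rise can be read from them. Forskolin minus static was -0.04 for MYF5 in PKHD1-/-, where both arrays were above background. The fit, which takes the static array of PKHD1+/- at its measured value, gave an adjusted p of 0.829 in limma.

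**Figure D1:**
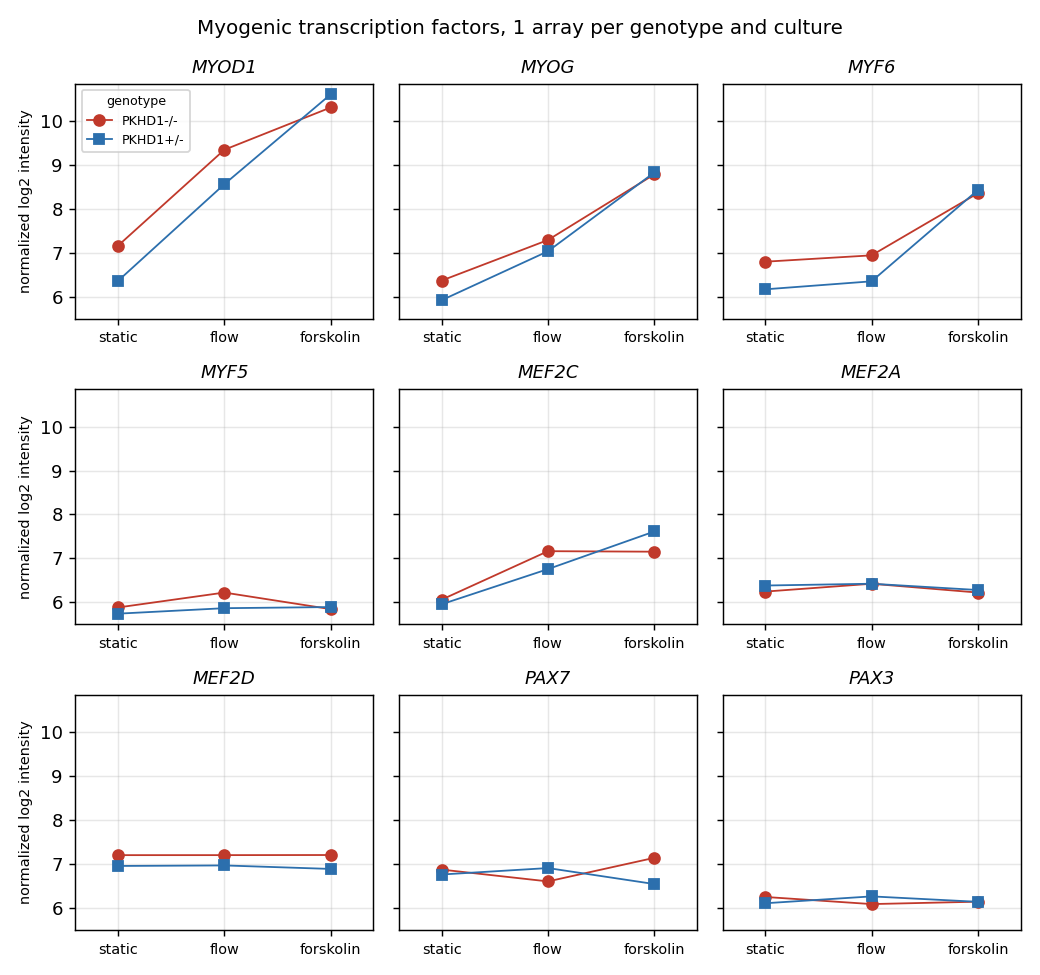
Normalized log2 intensity (vertical axis) of each member in static, flow and forskolin culture (horizontal axis), 1 array per point, with PKHD1-/- as red circles and PKHD1+/- as blue squares joined by lines. MYOD1 runs from 6.36 and 7.16 in static culture to 10.31 and 10.61 with forskolin, MYOG, MYF6 and MEF2C span less, and each of the other 5 stays within a range of less than 1.

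MEF2C is the MEF2 gene of early muscle and heart. Its log2 level was 6.06 and 5.96 in static culture for PKHD1-/- and PKHD1+/-, 7.16 and 6.76 under flow, and 7.15 and 7.61 with forskolin. Flow and forskolin arrays overlapped each other and all 4 stood above both static arrays. Flow minus static was 1.10 and 0.80 for MEF2C, with a residual SD of 0.24. Forskolin minus static was 1.09 and 1.66, a mean of 1.37 ± 0.24 (SE, n = 2 pairs), and did not pass (adjusted p = 0.0948, limma). The authors' intensity of MEF2C read 7.36 and 4.32 in static culture, 47.9 and 35.3 under flow, and 51.2 and 76.2 with forskolin, which is 6.51 and 8.18 times the static value under flow and 6.96 and 17.6 times with forskolin. Both static MEF2C intensities were close to background, as for MYOG, so these ratios are uncertain too.

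MEF2A and MEF2D are expressed in many tissues. MEF2A ranged from 6.22 to 6.42 over the 6 arrays, and its forskolin minus static difference was -0.06 ± 0.07 (SE, n = 2 pairs; adjusted p = 0.655, limma). Its 2 probes did not move together. In the authors' scale the ratio of forskolin to static for 1 probe was 0.643 in PKHD1-/- and 0.541 in PKHD1+/-, and for the other 1.48 and 0.974. MEF2D read 7.20 in all 3 cultures of PKHD1-/-, and 6.95 in static culture, 6.97 under flow and 6.89 with forskolin in PKHD1+/-. Its forskolin difference was -0.03 ± 0.06 (adjusted p = 0.805, limma), and its flow minus static differences were 0.00047 and 0.012. With intensities scaled to the 75th percentile, which moved the median of all genes by 0.31 in the forskolin comparison, the differences of MEF2A and MEF2D became 0.29 and 0.05, both smaller than that shift. MEF2B, the relative outside the set, ranged from 6.48 to 6.65.

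**Figure D2:**
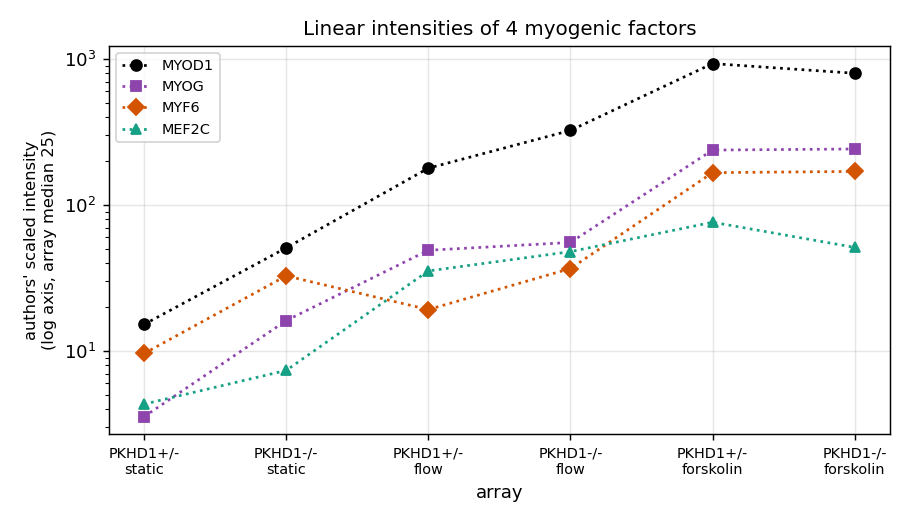
The authors' scaled intensity (vertical log axis, array median 25) of MYOD1, MYOG, MYF6 and MEF2C on each of the 6 arrays (horizontal axis), 1 value per point with dotted lines to guide the eye. The MYOD1 points run from 15.2 in PKHD1+/- static culture to 930.9 in PKHD1+/- forskolin, and those of MYOG from 3.55 to 242.0. Levels of different genes are not comparable, because each probe has its own brightness.

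PAX7 marks muscle progenitors and satellite cells. Its log2 level was 6.87 and 6.76 in static culture for PKHD1-/- and PKHD1+/-, 6.60 and 6.91 under flow, and 7.14 and 6.54 with forskolin. The 3 cultures overlapped, and no step between neighbouring arrays was larger than the residual SD of 0.25. Forskolin minus static was 0.27 in PKHD1-/- and -0.22 in PKHD1+/-, a mean of 0.03 ± 0.25 (SE, n = 2 pairs; adjusted p = 0.965, limma). PAX3, which acts earlier in the somite and in the neural crest, ranged from 6.09 to 6.26 in log2 level. Its forskolin difference was -0.04 ± 0.10 (adjusted p = 0.866, limma), and its flow differences were -0.16 and 0.16. Levels of PAX3 were low, at 6.89 to 16.1 in the authors' intensity, so a small difference could not have been seen here.

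Set against all genes, both flow arrays stood above both static arrays for MYOD1, MYOG, MEF2C and MEF2A, which are 4 of 9 members, and for 15.7% of all genes tested. For MEF2A this held for the mean of its probes only. Of its probes 1 read 6.38 in PKHD1+/- flow, below its 6.45 in PKHD1+/- static culture. Both forskolin arrays stood above both static arrays for MYOD1, MYOG, MYF6 and MEF2C, again 4 of 9, and for 30.8% of all genes. A forskolin difference of at least 1 in both genotypes was seen for the same 4 members and for 1.11% of all genes. Flow minus static was above 0 in both genotypes for 7 of 9 members and for 21.1% of all genes, the exceptions being PAX7 and PAX3. The 7 include MEF2D, whose flow differences lay within its residual SD of 0.061. Its flow to static ratio in the authors' scale was 0.944 in PKHD1-/-. They also include MYF5, which was not above background in PKHD1+/- static culture. The set was selected on the flow and static levels, so the flow counts describe it and are no support. The flow and forskolin differences share the static arrays. The members' median was 0.16 for flow and 0.06 for forskolin (0.03 with MYF5 at its bound), beside medians of -0.0084 and 0.0030 over all genes. These medians depend on the processing. They were 0.58 and 0.31 with the authors' values, and 0.26 and 0.14 with a background offset of 16. With intensities scaled to the 75th percentile they were 0.07 and 0.59, beside -0.11 and 0.31 over all genes.

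**Figure D3:**
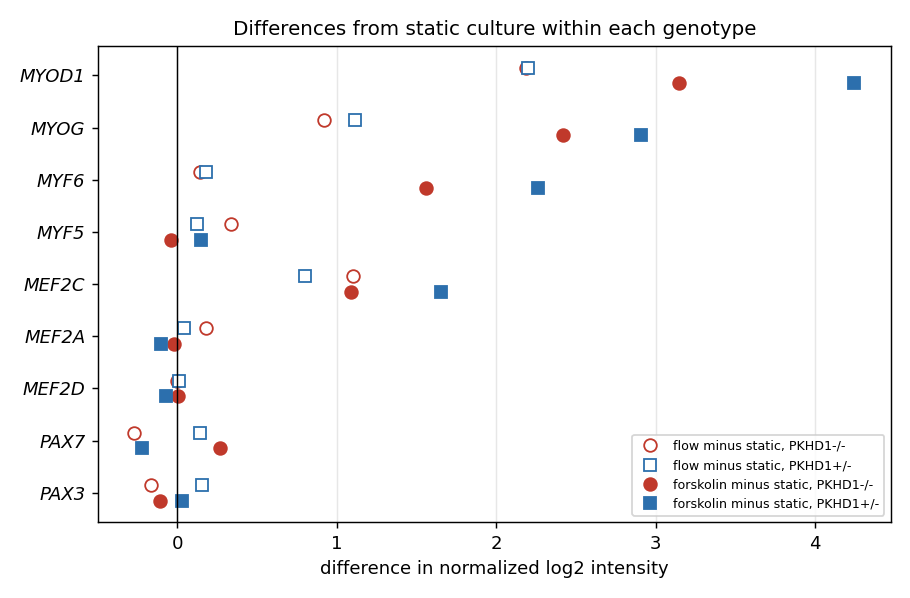
Difference from static culture in normalized log2 intensity (horizontal axis) for each member (vertical axis), with open symbols for flow, filled symbols for forskolin, circles for PKHD1-/- and squares for PKHD1+/-, each the difference of 2 arrays. MYOD1 shows 2.18 and 2.20 under flow and 3.15 and 4.25 with forskolin, and MEF2D lies at 0 within 0.07. The squares of MYF5 are taken against a static array that was not above background.

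The levels of forskolin and flow were also compared directly, a contrast added after the data were seen. Forskolin minus flow was 1.50 ± 0.34 for MYOD1 (SE, n = 2 pairs; adjusted p = 0.121, limma), 1.64 ± 0.14 for MYOG (0.0594) and 1.75 ± 0.22 for MYF6 (0.0732). For MEF2C it was 0.42 ± 0.24 (adjusted p = 0.370, limma), with -0.01 in PKHD1-/- and 0.86 in PKHD1+/-. No member passed, and in this contrast 0.0428% of all genes were called higher and 0% lower. So the order of forskolin above flow held for MYOD1, MYOG and MYF6 in both genotypes, without passing the test.

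For MYOD1 and MYOG the 6 arrays fell in the same order, from PKHD1+/- static through PKHD1-/- static, PKHD1+/- flow, PKHD1-/- flow and PKHD1-/- forskolin to PKHD1+/- forskolin. The first 4 steps of this order were larger than the residual SD for both genes. The last step, between the forskolin arrays, was 0.30 for MYOD1 and 0.04 for MYOG, within their residual SD of 0.34 and 0.14. MYF6 differed in that PKHD1-/- static lay above PKHD1+/- flow, and MEF2C in that PKHD1-/- flow lay above PKHD1-/- forskolin.

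Over the 6 arrays, MYOD1 correlated with MYOG (Pearson r = 0.97, Spearman rho = 1), with MEF2C (0.97) and with MYF6 (0.86), and MYOG with MYF6 at 0.94. These values describe 6 arrays that share cultures and genotypes, and carry no test. MYF5 had lower values with the other bHLH genes, with r of 0.36 to MYOD1, 0.14 to MYOG and 0.05 to MYF6. The rank correlations of MYF5 were higher, with rho of 0.49 to MYOD1, 0.49 to MYOG, 0.54 to MYF6 and 0.71 to MEF2C, and all of them rest on levels near background. PAX7 correlated with MYOD1 at -0.06 and PAX3 with MYOD1 at -0.23. MEF2A had an r of -0.69 to MYF6 and -0.46 to MYOG, over a range of only 0.20 in its level.

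**Figure D4:**
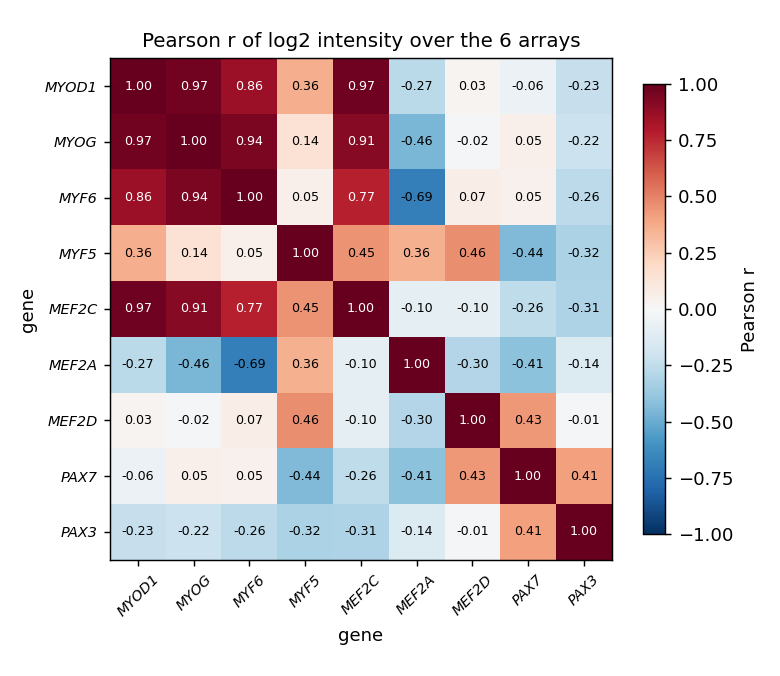
Pearson r of normalized log2 intensity over the 6 arrays for each pair of members (both axes list the genes), in colour from -1 (blue) to 1 (red) with the value printed. MYOD1, MYOG, MYF6 and MEF2C form a block of values from 0.77 to 0.97. Pairs with MYF5, MEF2A, MEF2D, PAX7 or PAX3 lie between -0.69 (MYF6 with MEF2A) and 0.46.

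The genes whose pattern was most like that of MYOD1 were sought among 1932 genes that were no members and ranged over at least 1 on the log2 scale. NEB, the giant thin filament protein nebulin, came first (r = 0.998 over 6 arrays), followed by APOBEC2, a muscle member of the cytidine deaminase family, at 0.994. CDH15, the M-cadherin of muscle cells, SOHLH2, a germ cell bHLH gene, and MYBPC1, the slow myosin-binding protein C, each stood at 0.993. CDH15 read 7.66 and 6.58 in static culture for PKHD1-/- and PKHD1+/-, 9.28 and 8.88 under flow, and 10.76 and 10.88 with forskolin, which is the order of MYOD1.

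For MYOG the nearest patterns were ACTA1, the skeletal alpha-actin, and LRIG1, a membrane regulator of growth factor receptors, both at 0.997. They were followed by CKB, the brain creatine kinase, at 0.996 and by ENO3, the muscle enolase, and MYBPH, a myosin-binding protein, both at 0.995. For MEF2C they were NEXN, an actin-binding protein of muscle (0.998), CAP2 (0.982), MYBPC1 (0.978), APOBEC2 (0.977) and NEB (0.974). MYBPC1, APOBEC2 and NEB thus appear for both MYOD1 and MEF2C.

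MYF6, added here after its values were seen, was nearest to COPS6, a subunit of the COP9 signalosome (0.994), MEGF11 (0.992), the nicotinamide riboside kinase NMRK2 (0.992), the cell cycle inhibitor CDKN1A (0.992) and PLAAT1 (0.991). MEF2A went with CLRN3 (0.986), the apolipoprotein APOA1 (0.979), the retinaldehyde dehydrogenase ALDH1A1 (0.970), the glucocorticoid receptor NR3C1 (0.968) and LGALS2 (0.965). For MEF2D the nearest were BTAF1 (0.926), MAGEA1 (0.921, above background on 4 arrays), TMX1 (0.825), OAF (0.820) and TENT4A (0.816). PAX7 went with BLMH (0.964), ACTR10 (0.955), UBE2Z (0.943), EPHB6 (0.937) and NIT1 (0.922). MEF2A ranged over 0.20 in level, MEF2D over 0.32 and PAX7 over 0.60, so these correlations rest on small differences.

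The genotype comparison asks whether PKHD1-/- organoids differed from PKHD1+/- organoids over the 3 cultures. No member passed, all with an adjusted p of 1.00 in limma, as did 0% of all genes. At an unadjusted p under 0.05, 1.92% of all genes were higher and 1.3% lower in PKHD1-/-. MEF2D was higher in PKHD1-/- in 3 of 3 cultures, by 0.25 in static culture, 0.23 under flow and 0.32 with forskolin, a mean of 0.27 ± 0.05 (SE, n = 3 pairs). Such a sign in all 3 cultures was seen for 11.7% of all genes. MEF2A was lower in all 3, with a mean of -0.07 ± 0.05, as were 9.07% of all genes, and under 75th percentile scaling its mean was 0.04.

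On the normalized log2 scale MYOD1, MYOG, MYF6, MYF5 and MEF2C were all higher in PKHD1-/- than in PKHD1+/- in flow and in static culture. With forskolin all 5 were lower, though only MEF2C by more than its residual SD. In the authors' scale the forskolin values of MYOG, MYF6 and MYF5 were instead higher in PKHD1-/-. They were 242.0 against 237.9 for MYOG, 169.9 against 166.6 for MYF6 and 3.17 against 2.54 for MYF5. How many of all genes share this pattern was not counted. For MYF5 in static culture the difference is a bound, at least 1.06-fold, since PKHD1+/- was not above background there. This bound lies within the residual SD of MYF5. For MYOD1 the genotype difference was 0.80 in static culture, 0.78 under flow and -0.30 with forskolin, on average 0.43 ± 0.28 (SE, n = 3 pairs; adjusted p = 1.00, limma). Within the 4 flow and static arrays, of 1 scan day, it was 0.84 ± 0.09 (SE, 1 pair in each culture). The set was selected on the levels of these arrays. Over 15 alternatives the lowest adjusted p of the MYOD1 genotype difference was 0.567 (limma). In the order static, flow and forskolin, the genotype difference was 0.63, 0.59 and -0.07 for MYF6, a mean of 0.38 ± 0.18. For MYOG it was 0.45, 0.26 and -0.04, a mean of 0.22 ± 0.12. Whether the genotype difference changes with culture was not tested, since each combination is 1 array.

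Partners, inhibitors and targets of the members were read from lists that were drawn up with earlier results of these arrays known. The E proteins are the bHLH partners that MYOD1 and its relatives need to bind DNA. Of 14 cofactors tested, which hold the E proteins, none was called in either comparison. TCF4, an E protein gene, read 8.33 and 8.59 in static culture for PKHD1-/- and PKHD1+/-, 9.65 and 9.65 under flow, and 9.24 and 9.70 with forskolin. Its flow differences were 1.31 and 1.06, and its forskolin difference was 1.00 ± 0.13 (SE, n = 2 pairs), which did not pass (adjusted p = 0.0712, limma). TCF12, another E protein gene, differed by 0.48 and 0.69 under flow and by -0.16 ± 0.12 with forskolin. TCF3, the third E protein gene, differed by -0.11 and 0.46 under flow, and RBM24, an RNA-binding protein of muscle, by 0.26 and 0.09. CARM1, an arginine methyltransferase, differed by 0.71 ± 0.22 with forskolin (adjusted p = 0.194, limma), and the acetyltransferase gene EP300 had a genotype difference of -0.26 ± 0.27 (SE, n = 3 pairs). The median of the cofactors was 0.10 for flow and 0.13 for forskolin.

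The ID proteins lack a DNA-binding region and hold E proteins away from MYOD1. All 4 ID genes had lower levels under flow and with forskolin than in static culture, in both genotypes. Over all genes, 24.2% were lower in both genotypes under flow and 35.1% with forskolin. No ID gene passed the forskolin test, and the flow differences are given without a test. ID2 read 11.80 and 12.01 in static culture for PKHD1-/- and PKHD1+/-, 11.14 and 11.20 under flow, and 9.34 and 10.18 with forskolin. Forskolin minus static was -2.14 ± 0.23 for ID2 (SE, n = 2 pairs; adjusted p = 0.0588, limma) and -2.27 ± 0.27 for ID4 (0.0624). It was -1.49 ± 0.35 for ID1 (adjusted p = 0.136, limma) and -1.08 ± 0.29 for ID3 (0.162). Flow minus static was -0.66 and -0.80 for ID2, -0.59 and -0.90 for ID1, -0.76 and -1.83 for ID3 and -0.20 and -0.22 for ID4.

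Of the 23 inhibitors tested, HEYL, a Notch target, was called higher with forskolin, at 0.98 ± 0.07 (SE, n = 2 pairs; adjusted p = 0.0474, limma), and none was called lower. Over all genes 0.703% were called higher and 0.33% lower. HEYL read 6.27 and 6.17 in static culture for PKHD1-/- and PKHD1+/-, 6.21 and 6.25 under flow, and 7.18 and 7.21 with forskolin. SNAI2, a zinc finger repressor that competes for E-boxes in myoblasts, differed by -0.96 and -0.37 under flow and by -1.25 ± 0.22 with forskolin (adjusted p = 0.0942, limma). The list's median was -0.10 for flow and -0.09 for forskolin.

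Muscle progenitor regulators other than PAX3 and PAX7 mostly stayed near 0, with a median of 0.0068 for flow and 0.07 for forskolin over 24 genes, and none was called. BOC, a surface receptor that promotes muscle differentiation, differed by 0.60 and 0.93 under flow and by 1.23 ± 0.10 with forskolin (SE, n = 2 pairs; adjusted p = 0.0505, limma), just short of the threshold. MET, the receptor that guides migrating muscle progenitors, differed by -0.99 ± 0.10 with forskolin (0.0588). EYA4, EYA1 and MEOX2, regulators of the somite, differed by 0.50, 0.49 and 0.41 under flow on average over both genotypes. FGFR4, a receptor of muscle progenitors, had a genotype difference of -0.34 ± 0.24 (SE, n = 3 pairs).

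None of the 14 kinases and phosphatases that act on MEF2 was called. CAMK2B had flow differences of 0.37 and 0.36, and PPP3CA, a catalytic subunit of calcineurin, a forskolin difference of 0.38 ± 0.06 (SE, n = 2 pairs; adjusted p = 0.0869, limma). CAMK4 differed by -0.14 and -0.25 under flow, CAMK1 by -0.67 and 0.41, and the calcineurin gene PPP3CB by 0.01 and 0.22. The forskolin difference of CAMK4 was -0.42 ± 0.07 (adjusted p = 0.0905, limma) and became 0.07 under 75th percentile scaling. MAPK7 and CAMK2A had genotype differences of -0.20 ± 0.10 and 0.16 ± 0.07 (SE, n = 3 pairs). None of the 6 genes that MEF2 regulates outside muscle was called either. JUN, an AP-1 factor, read 6.92 and 7.39 in static culture for PKHD1-/- and PKHD1+/-, 7.86 and 8.31 under flow, and 8.06 and 8.02 with forskolin, with flow differences of 0.94 and 0.92. The Krüppel-like factor gene KLF2 differed by -0.14 and 0.90 under flow and by 0.63 ± 0.29 with forskolin (SE, n = 2 pairs; adjusted p = 0.310, limma). Under flow KLF4 differed by 0.15 and 0.28, and ARC, a gene of active neurons, by -0.04 and -0.07.

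Genes of muscle differentiation, the targets of the members, were the list with the largest values. Of 58 tested, 19 were called higher with forskolin and none lower, beside 0.703% and 0.33% of all genes. The forskolin median of the list was 1.84 and its flow median 0.52. A flow difference of at least 1 in both genotypes was seen for 19 of the 58, beside 0.354% of all genes, and a forskolin difference of that size for 35, beside 1.11%. Of 59 genes measured, 54 were above background in PKHD1-/- static culture, 51 in PKHD1+/- static culture and 51 on all 6 arrays. Some genes therefore passed the filter through other arrays. Their differences are taken against static values under background, so these counts describe the list and are no independent support. Sarcomere genes led. ACTA1 read 7.97 and 6.64 in static culture for PKHD1-/- and PKHD1+/-, 10.26 and 9.09 under flow, and 13.36 and 13.29 with forskolin, where it differed by 6.02 ± 0.37 (SE, n = 2 pairs; adjusted p = 0.0445, limma).

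TNNC2, the fast troponin C, differed by 5.57 ± 0.36 with forskolin (adjusted p = 0.0447, limma), and the embryonic myosin MYH3 by 5.46 ± 0.44 (0.0491). TNNC1, the slow and cardiac troponin C, differed by 4.81 ± 0.26 (0.0431). Under flow MYH3 differed by 2.55 in PKHD1-/- and 4.03 in PKHD1+/-, the cardiac actin ACTC1, also found in embryonic muscle, by 2.24 and 4.06, the light chain MYL1 by 2.48 and 3.44, and TNNC2 by 2.62 and 2.77. KLHL41 and MYL1 had the largest genotype differences of the list, 1.41 ± 0.34 and 1.22 ± 0.37 (SE, n = 3 pairs), and no gene of the list was called for genotype. The summed authors' intensity of the list was 5253.3 and 1625 in static culture for PKHD1-/- and PKHD1+/-, 24568.5 and 12270.2 under flow, and 103518 and 83229 with forskolin, the same order of cultures as for MYOD1.

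**Figure D5:**
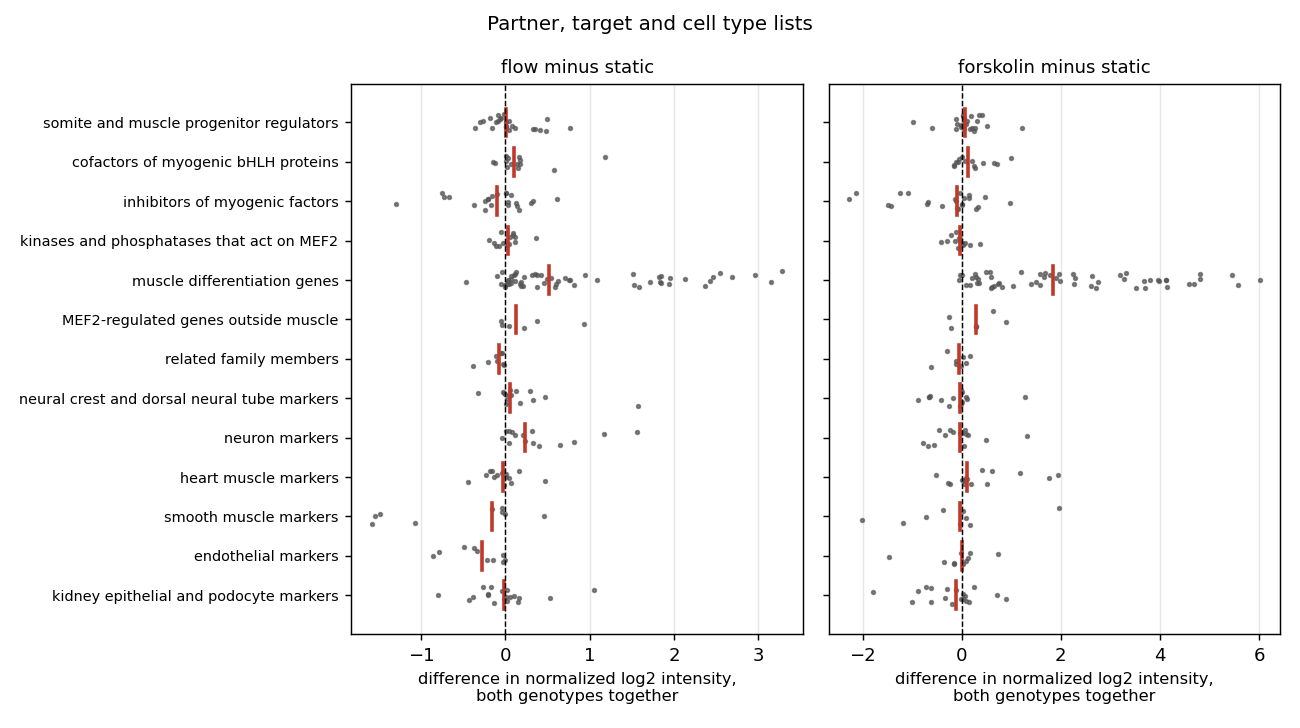
Difference from static culture in normalized log2 intensity, mean of both genotypes (horizontal axes), for each tested gene of the 13 lists (rows), with flow on the left and forskolin on the right, grey points for genes and red bars for medians. The muscle differentiation genes reach 3.29 under flow and 6.02 with forskolin, with medians of 0.52 and 1.84, and the medians of the other lists lie within 0.29 of 0.

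The closest relatives outside the set are the other PAX genes and MEF2B, and no gene of these 8 was called. PAX2 differed by -0.47 and -0.30 under flow and by -0.29 ± 0.09 with forskolin (SE, n = 2 pairs; adjusted p = 0.186, limma). PAX8 differed by -0.58 and 0.17 under flow and by -0.61 ± 0.29 with forskolin (0.318). PAX6 and PAX9 differed by at most 0.17 under flow in either genotype.

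MYOD1, MYOG and MYF6 are restricted to skeletal muscle in the adult body, while MEF2C, PAX7 and PAX3 are also found elsewhere, so markers of other tissues were read beside them. Of 17 heart muscle markers, 15 were tested. Beside 0.703% of all genes, 3 of these markers were called higher with forskolin. They were MYL3, a ventricular and slow muscle light chain (1.94 ± 0.13, adjusted p = 0.0448, limma), MYH6, the atrial myosin (1.76 ± 0.07, 0.0345), and the transcription factor gene NKX2-5 (1.18 ± 0.09, 0.0484). MYH6 was not above background in PKHD1+/- static culture, so its mean is taken against a measured value under background, and in PKHD1+/- it was at least 3.13-fold higher with forskolin. In PKHD1-/-, where all arrays measured it, the forskolin difference of MYH6 was 1.85. Under flow the regulator genes ISL1 and TBX5 differed by 0.69 and 0.26 and by -0.73 and 0.27, and the natriuretic peptide gene NPPB by -0.21 and -0.14. PLN, the phospholamban of heart and slow muscle, was above background on 3 arrays, at 6.35 and 6.25 in static culture and 5.95 in PKHD1+/- flow. The heart regulator GATA4 read 5.83 to 5.92 on the 6 arrays, the atrial peptide gene NPPA 5.74 to 5.87, with 3 arrays above background, and the cardiac troponin TNNI3 6.02 to 6.16. TBX20 was above background on 0 arrays. With forskolin ISL1 differed by 0.56 and 0.66, the light chain genes MYL7 by 0.72 and 0.30 and MYL2, above background on 3 arrays, by 0.44 and 0.40. Gene by gene the forskolin median of the heart list was 0.11, with 12 of 15 above 0 and 3 below. The flow median was -0.02, with 6 of 15 above 0. The summed authors' intensity of the heart list was 239.5 to 338.1 without forskolin and 846.7 and 605.9 with it. The part of heart cells in the members' levels was not tested.

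Of 9 smooth muscle markers none was called. ACTA2 differed by -2.22 and -0.88 under flow, ACTG2 by -2.41 and -0.75, and CNN1 by -1.30 and -0.85, and TAGLN by -3.33 and 0.37. The summed intensity of the list was 5119 and 5516 in static culture for PKHD1-/- and PKHD1+/-, 1109 and 3277 under flow and 3765 and 3887 with forskolin, a sum that the brightest genes dominate. Gene by gene the forskolin median of the list was -0.04, with 4 of 9 above 0, and the flow median -0.16, with 1 of 9 above 0. TAGLN differed by -2.68 and -1.36 with forskolin, and DES, the desmin of all muscle types, by 1.44 and 2.50 (mean 1.97 ± 0.35, SE, n = 2 pairs; adjusted p = 0.0955, limma). Of 15 neuron markers none was called. DCX, a protein of young neurons, differed by 1.64 and 1.48 under flow and by 1.77 and 0.86 with forskolin. The summed neuron intensity was 1022 and 794.5 in static culture, 1957 and 1726 under flow and 1841 and 1179 with forskolin. Gene by gene the forskolin median of the neuron list was -0.03, with 8 of 15 below 0, against 0.23 and 1 of 15 for flow. SYT4, a synaptotagmin, differed by 0.89 and 1.44 under flow and by -0.86 and -0.06 with forskolin. INA, a neuronal intermediate filament, differed by 0.85 and 0.77 and by -0.98 and -0.58. ELAVL4, a neuronal RNA-binding protein, differed by 0.96 and 0.34 under flow, and the neurofilament gene NEFM had a genotype difference of 0.31 ± 0.27 (SE, n = 3 pairs). Of 15 neural crest and dorsal neural tube markers none was called, and the medians were 0.06 for flow and -0.03 for forskolin. MSX1, a homeobox gene, differed by 2.32 and 0.84 under flow and by -0.68 and -0.64 with forskolin. SOX10, a defining gene of the crest, differed by -0.42 and -0.22 under flow, and ZIC1, of the dorsal neural tube, by 0.42 and 0.24. Its relative ZIC2 differed by 0.30 and 0.64 under flow and by -1.18 and -0.59 with forskolin, and NGFR, a neurotrophin receptor, by 1.01 and 1.55 with forskolin (adjusted p = 0.0826, limma). The part of neurons and neural crest in the levels of MEF2C, PAX3 and PAX7 was not tested.

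Among 10 endothelial markers, EMCN was called lower with forskolin, at -1.47 ± 0.09 (SE, n = 2 pairs; adjusted p = 0.0445, limma), beside 0.33% of all genes. KDR differed by 0.73 ± 0.07 with forskolin (adjusted p = 0.0565, limma). Under flow EMCN differed by -0.78 and -0.94, the tight junction gene CLDN5 by -0.54 and -1.04, EGFL7 by -0.55 and -0.43, and the adhesion gene ESAM by -0.77 and 0.04. The summed endothelial intensity was 496.5 and 552.6 in static culture for PKHD1-/- and PKHD1+/-, 248.6 and 361.0 under flow and 483.9 and 404.0 with forskolin. Among 19 kidney markers none was called. SLC3A1, a transporter of the proximal tubule, differed by 2.01 and 0.10 under flow and by -1.80 ± 0.56 with forskolin, and EPCAM, an epithelial surface protein, by -0.66 and -1.33 with forskolin. WT1, a podocyte factor, differed by -0.25 and -1.34 under flow, the proximal tubule receptor LRP2 by 0.79 and 0.26, and EMX2, a homeobox gene of the developing kidney, by -0.05 and -0.81. The summed kidney intensity was 1926 and 3429 in static culture, 2396 and 2401 under flow and 1817 and 1564 with forskolin.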

How the data were processed

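The deposited scanner files give the median intensity of each of 27456 spots per array, linear and without background subtraction, per the file headers. The authors' value table gives a scaled intensity per probe with a median of 25 on every array, and empty cells mark probes not above background. On each array it is linear in the spot median. Aligners do not apply, and the steps behind the scaling are not given in the sources used here.

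Spot medians were corrected with normexp (offset 50), log2 transformed and quantile normalized by limma 3.58.1 in R 4.3.3. Of 24460 probes, 20236 had 1 symbol and 4224 none. Symbols were brought to current names through RefSeq: 17238 were current, 2899 were updated and 99 were kept. Left out were 205 probes flagged as not good on at least 1 array. Probes were averaged per gene, giving 17446 genes. The 16364 genes above background on at least 2 arrays were tested, all 9 members among them, 8 of which were above background on all 6 arrays. Each array carries 2680 blank spots. The number of arrays limits the precision.

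The model was culture plus genotype over 6 arrays, which leaves 2 degrees of freedom for the spread beside a prior of 1.54. It pairs arrays by culture (3 pairs for genotype) or by genotype (2 pairs for forskolin). Tests were 2-sided with an adjusted p threshold of 0.05. The residual SD is limma's moderated value. With 1 array per group the p-values measure only what culture and genotype, added together, leave over. This may be technical, or an unequal response of the genotypes to culture, and the model cannot tell them apart. Flow minus static was not tested for the members.

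The members and gene lists were chosen with earlier results of these data known. Named were all members, and from each list at most 4 called genes, the 4 with the largest flow difference and the 2 with the largest forskolin and genotype differences. MEF2B, PAX2 and PAX8 were always named, and for MYOD1, MYOG, PAX7 and the MEF2 members also the 5 genes most correlated over the arrays. Heart markers near background, TBX20, GATA4, NPPA and TNNI3, and UMOD and SLC12A3 were named after their values were seen, to describe what was low, as were the genes most correlated with MYF6. The heart markers MYL7 and MYL2 were also named after their values were seen, to show others that were higher with forskolin. The loose motif CTANNNNTA and the forskolin minus flow contrast were added after the data were seen. Other settings tried were no background correction, offset 16, 75th percentile scaling, the value table with empty cells at 1.73, other filters, the brightest probe, limma's trend and robust options, each array left out, and the flow and static arrays alone. Python 3.11.15 and pandas 2.3.3 were used for joining and motifs.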

Additional observations from a re-analysis of the deposited data

Results flagged for a closer look

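Several members moved in opposite directions in the 2 genotypes, each on a single pair of arrays, and the difference between genotypes was not tested. PAX7 differed from static culture under flow by -0.27 in the PKHD1-/- and by 0.15 in the PKHD1+/- pair, and with forskolin by 0.27 and -0.22. PAX3 differed by -0.16 and 0.16 under flow and by -0.11 and 0.032 with forskolin. MEF2D differed by 0.0027 and -0.068 with forskolin. MYF5 differed by -0.038 and a measured 0.15 with forskolin, where the static array of PKHD1+/- was not above background. The bound there is 0.095, which lies within the residual SD. The residual SD was 0.25 for PAX7, 0.10 for PAX3, 0.12 for MYF5 and 0.061 for MEF2D.

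The genotype difference (PKHD1-/- minus PKHD1+/-) had opposite signs in different cultures for 7 members, given here in the order flow, static and forskolin, again untested. It was 0.78, 0.80 and -0.30 for MYOD1, 0.26, 0.45 and -0.043 for MYOG, 0.59, 0.63 and -0.073 for MYF6, 0.36, 0.14 and -0.048 for MYF5 and 0.41, 0.11 and -0.46 for MEF2C. The static value of MYF5 is likewise taken against that array and stands for at least 0.086. For these 5 genes the forskolin arrays, which were scanned on another day, carried the opposite sign. This depends on the normalization, since the authors' forskolin values of MYOG, MYF6 and MYF5 were higher in PKHD1-/-. The genotype difference was -0.30, 0.11 and 0.60 for PAX7 and -0.18, 0.14 and 0.0035 for PAX3, where the flow arrays carried the opposite sign.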

How the results depend on the processing

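The number of genes called for forskolin against static culture was 169 and moved with most choices. It was 585 with offset 16, 41 without the filter on dim genes and 1177 with limma's trend and robust options. With 75th percentile scaling it was 6833, when the median of all genes moved by 0.31. Of the 169 calls, 115 were higher and 54 lower, against 330 and 255 with offset 16, 5991 and 842 with 75th percentile scaling, 35 and 6 without the filter, and 596 and 581 with trend and robust. Leaving out any 1 array gave 0 calls, from 0 to 0, with limma and 1 array fewer, although 2079 to 4077 genes then had an unadjusted p under 0.05. The genotype count stayed at 0 under all 15 alternatives. The flow difference of MYOD1 was 2.19 as a mean, 2.68 with offset 16 and 3.11 with the value table, and 1.89 to 2.47 without 1 array.

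MYOG alone passed the forskolin test as reported. MYOD1 passed it with no background correction, offset 16, 75th percentile scaling, the value table, genes above background on all arrays only, and trend and robust. MYF6 passed with offset 16, 75th percentile scaling, and trend and robust, and MEF2C with these and the value table. MYF5 passed with 75th percentile scaling, at 0.59. MYOD1, MYOG, MYF6 and MEF2C kept the sign of their forskolin difference under all 14 alternatives.

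Members with small differences changed sign. With 75th percentile scaling the genotype difference was 0.037 for MEF2A and 0.097 for PAX3, and the forskolin difference 0.29 for MEF2A, 0.048 for MEF2D and 0.37 for PAX3. The forskolin difference of PAX7 was -0.075 with the value table, and that of MEF2A 0.095 with the brightest probe. The genotype difference of PAX7 was -0.11 within the scan day of the flow and static arrays. With 1 array left out, the lowest and highest genotype differences were -0.18 and 0.27 for MEF2C, -0.086 and 0.071 for PAX3 and -0.10 and 0.34 for PAX7. The forskolin ranges were -0.15 to 0.077 for PAX3, -0.34 to 0.38 for PAX7, -0.10 to 0.22 for MYF5 and -0.074 to 0.0057 for MEF2D. The cause was not tested.

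The model already pairs the arrays, by culture in 3 pairs and by genotype in 2. With 1 array per group there is no further replicate block to fit. Signal over background limits MYF5 and PAX3 on every array, MYOG in PKHD1+/- static culture and MEF2C in both static cultures. MYF6 and MYOD1 were also low in PKHD1+/- static culture. Values of MYF5 here take the array that was not above background as measured.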
